A study of Mus musculus with 21 samples.

Results

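The 10 genes described here encode the Notch receptors Notch1, Notch2, Notch3 and Notch4, the ligands Dll1, Jag1 and Jag2, and the target genes Hes1, Hes5 and Hey1. They were chosen by gene symbol and not by a rule on their measured values, but with earlier results of these data known. All 10 were among the 16318 genes of the deposited count table. The RNA came from whole brains of 21 mice of SAMP8, an inbred strain that ages fast and serves as a model of sporadic Alzheimer's disease, taken at an age of 6 months. Of these, 9 mice (3 females, 6 males) had received 8 weeks of subcutaneous injections, every second day, of HsTX1[R14A] at 1 mg/kg, a peptide that blocks the potassium channel Kv1.3. The other 12 mice (6 females, 6 males) had received phosphate-buffered saline, PBS. All mice carried the same SAMP8 background, each library came from 1 mouse, and the data analysed here hold no untreated or SAMR1 control strain. The comparison asks how the Notch genes differed between treated and PBS mice, and whether the target genes followed the receptors.

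Notch signaling passes between neighboring cells: a Delta-like or Jagged ligand on one cell binds a Notch receptor on another, the receptor is cut by an ADAM protease and by gamma-secretase, and its freed intracellular domain enters the nucleus. There it joins the DNA-binding protein Rbpj and Mastermind-like coactivators and switches on Hes and Hey genes, which encode basic helix-loop-helix repressors. In the brain the pathway is known for holding neural stem cells in an undifferentiated state and for its part in astrocytes and vessels. Notch3 is best known from mural cells of small vessels and Notch4 from endothelium, while Hes5 is a classical target in neural progenitors and astrocytes.

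Rbpj recognizes DNA with the core letters GTGGGAA, so this motif was searched on both strands in the RefSeq promoter windows (GRCm38.p6), which run from 250 bases before to 50 bases after a transcription start. Such windows were at hand for 8 of the 10 genes (9 windows, 2 of them for Dll1), and not for Hes1 or Hey1. The motif or its reverse complement TTCCCAC was present in 2097 of 32851 windows of all genes (6.38%). The Hes5 window held 2 matches, whose first bases lay at -226 (reverse strand) and -83 (forward strand) from the start, and the 8 windows of the receptors and ligands held none. The Hes5 window is printed because it carries the motif of the pathway, in capitals. Those of Notch3, which had the largest fold change of the 10 genes, and Dll1, which had the smallest p, are printed for comparison, and no match says only that these letters are not in this window. They lie at chr4:154960673-154960972 (plus strand) for Hes5, chr17:32166841-32167140 (minus strand) for Notch3, and chr17:15375774-15376073 and chr17:15376883-15377182 (both minus strand) for the 2 starts of Dll1.
Hes5: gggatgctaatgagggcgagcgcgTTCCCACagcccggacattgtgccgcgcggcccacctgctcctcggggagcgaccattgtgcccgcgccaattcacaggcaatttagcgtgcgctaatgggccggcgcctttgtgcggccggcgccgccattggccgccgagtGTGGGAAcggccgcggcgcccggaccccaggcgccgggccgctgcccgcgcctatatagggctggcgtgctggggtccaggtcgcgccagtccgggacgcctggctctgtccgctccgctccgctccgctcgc
Notch3: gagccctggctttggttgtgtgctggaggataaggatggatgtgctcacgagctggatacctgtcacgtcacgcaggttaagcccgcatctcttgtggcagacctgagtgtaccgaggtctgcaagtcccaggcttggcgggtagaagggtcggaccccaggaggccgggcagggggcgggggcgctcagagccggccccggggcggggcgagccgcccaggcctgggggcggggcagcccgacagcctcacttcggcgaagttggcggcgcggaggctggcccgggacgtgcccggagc
Dll1, first window: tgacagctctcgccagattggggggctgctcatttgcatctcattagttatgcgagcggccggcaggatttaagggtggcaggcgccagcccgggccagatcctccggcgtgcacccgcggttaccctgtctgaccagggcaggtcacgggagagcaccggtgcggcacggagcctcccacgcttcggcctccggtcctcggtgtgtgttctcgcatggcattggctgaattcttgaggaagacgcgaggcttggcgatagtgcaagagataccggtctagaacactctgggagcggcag
Dll1, second window: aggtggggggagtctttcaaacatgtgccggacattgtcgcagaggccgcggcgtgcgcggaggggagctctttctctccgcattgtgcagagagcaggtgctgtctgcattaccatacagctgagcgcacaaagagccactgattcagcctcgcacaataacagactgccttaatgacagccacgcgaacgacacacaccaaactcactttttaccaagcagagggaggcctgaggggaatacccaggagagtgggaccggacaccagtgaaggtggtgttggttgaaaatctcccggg

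Total counts per mouse ranged from 14917174 to 47613792. Of the 16303 genes that passed the filter on low counts, 2526 (15.5%) were higher and 2618 (16.1%) were lower in HsTX1[R14A] mice at an FDR of 0.05 or less in edgeR's quasi-likelihood test with sex in the model. One property of the libraries stands beside every value given here. For each library a length slope was computed, which is the slope across genes of log2 CPM, taken relative to the gene's mean over mice, on the log2 of its longest transcript. A positive slope means that long transcripts had more reads than in the average library. The slope was -0.08 ± 0.16 (SD) in PBS mice and 0.10 ± 0.12 in HsTX1[R14A] mice, so it differed between treatments in the same direction as the long Notch genes. Transcripts under 2500 bases (5377 genes) had a median log2 fold change of -0.21, and those of 5000 bases and longer (3516 genes) one of 0.23. The 3 target genes are in the first class, Dll1 is between them, and the 4 receptors with Jag1 and Jag2 are in the second. The column names of the deposited counts also came in 2 forms. The prefix was SAMP8 in 15 mice (10 PBS and 5 HsTX1[R14A]) and SAMP in 6 mice (2 and 4). All sample titles read SAMP8, and what the prefixes mark is not given in the sources used here. Values within each name form are given below.

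At the level of RNA per length, the targets were the most abundant of the 10 genes. In PBS mice, mean CPM (TMM-scaled read counts relative to library size) per kilobase of longest transcript was 18.3 ± 1.57 (SD, n = 12) for Hey1, 8.92 ± 1.33 for Hes5 and 7.29 ± 0.88 for Hes1. Next in order were Jag2 at 2.29 ± 0.85, Notch1 at 1.41 ± 0.67, Notch2 at 1.205 ± 0.46, Jag1 at 0.97 ± 0.17, Dll1 at 0.76 ± 0.19, Notch3 at 0.59 ± 0.34 and Notch4 at 0.53 ± 0.16. Hey1 was above Hes5, Hes1 above Jag2, and Jag2 above Notch1 in 12 of 12 PBS mice. Hes5 was above Hes1 in 10 of 12 mice, Jag1 above Dll1 in 11 and Dll1 above Notch3 in 10. Notch1 was above Notch2 in 8 of 12 mice, Notch2 above Jag1 in 9 and Notch3 above Notch4 in 6, and the means of these 3 pairs, and those of Dll1 and Notch3, differed by less than the SD of the higher gene. The fitted difference of females minus males was not called for any member (9 of 16303 genes were called, 0.0552%). Its largest ratio to its SE among the members was in Hey1, at -0.17 ± 0.05 (SE) on the log2 scale (adjusted p = 0.446).

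Of the 4 receptors, Notch3 and Notch4 were higher in HsTX1[R14A] mice, and Notch1 and Notch2 did not pass the test. Over all 10 genes, 4 were called higher (Notch3, Notch4, Dll1 and Jag2) against the 15.5% of all genes tested, and 1 was called lower (Hes1) against 16.1%. The median log2 fold change of the 10 members was 0.47, and that of all genes tested was -0.01. In the fit with the sex term, receptor and ligand mRNAs had positive differences and target mRNAs negative ones. That of Hes5 was within its SE of 0. The plot of the fitted differences also shows other fits, in which some signs differ. With the length slope as covariate Notch1 was at -0.21 and Hes5 at 0.10. With a trend on length and GC removed Notch4 was at -0.22.

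Notch3, a receptor of vascular mural cells (chr17:32120820-32166852 of GRCm38, minus strand), had the largest difference of the 10. Its level in CPM ranged from 1.65 to 11.1 with a median of 4.84 in PBS mice, and from 2.17 to 14.2 with a median of 8.83 in HsTX1[R14A] mice. The 3 treated females had 11.1, 14.2 and 10.9 CPM. Only HsTX1[R14A] male 93, at 2.17, lay below the PBS median, while PBS female 84, at 11.1, reached the treated females, so the groups overlapped. The log2 fold change was 0.97 ± 0.30 (SE, adjusted p = 0.0255). The call was lost without HsTX1[R14A] female 71 (adjusted p = 0.05001) or male 88 (adjusted p = 0.0507) and when the name form was added to the model (adjusted p = 0.0515).

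Notch4, known from endothelium (chr17:34564268-34588503, plus strand), ranged from 2.41 to 5.91 CPM with a median of 3.19 in PBS mice and from 3.08 to 6.27 with a median of 4.91 in HsTX1[R14A] mice. All but 1 of the 9 treated mice were above the PBS median, and 5 of the 12 PBS mice were below the lowest treated mouse. The log2 fold change was 0.47 ± 0.15 (SE, adjusted p = 0.0250). It became 0.43 (adjusted p = 0.0525) without HsTX1[R14A] female 98 and 0.41 (adjusted p = 0.0701) with no sex term.

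Notch1 (chr2:26457903-26516663, minus strand) and Notch2 (chr3:98013527-98150361, plus strand) are the main receptors of neural stem cells. Notch1 ranged from 3.97 to 27.01 CPM with a median of 14.1 in PBS mice and from 8.19 to 25.98 with a median of 22.8 in HsTX1[R14A] mice. Its log2 fold change of 0.61 ± 0.26 (SE) did not pass the test (adjusted p = 0.0731), with the highest value of all in PBS female 84. Notch2 ranged from 5.82 to 21.7 CPM with a median of 12.5 in PBS mice and from 8.14 to 24.02 with a median of 17.1 in HsTX1[R14A] mice, at a log2 fold change of 0.48 ± 0.22 (adjusted p = 0.0910). The 3 treated females had Notch2 at 22.02, 23.9 and 20.9 CPM, and the treated males were spread from 8.14 to 24.02.

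**Figure D1:**
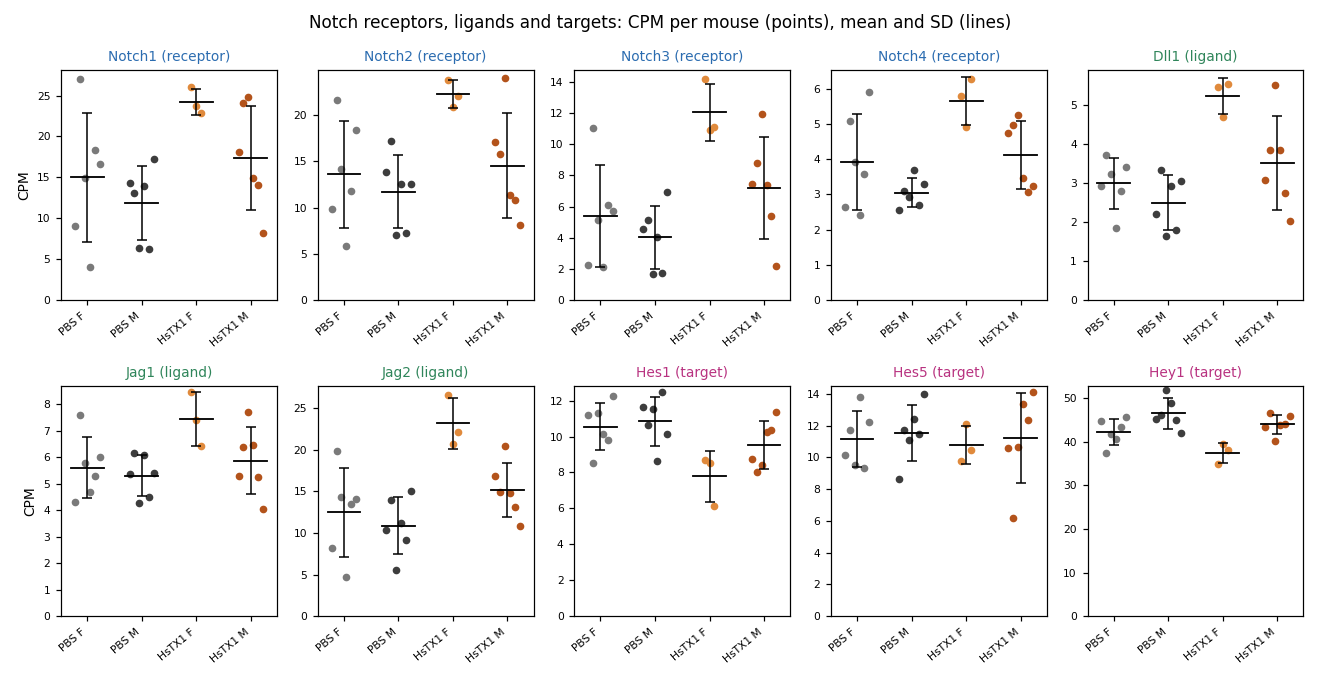
Each panel plots 1 gene in CPM (vertical axis from 0) for the 21 mice in 4 groups (PBS females and males, HsTX1[R14A] females and males), with points for mice and black lines for the group mean and SD. The treated females sit high for receptors and ligands (Notch3 at 10.9 to 14.2 CPM) and low for Hes1 and Hey1, and treated and PBS mice overlap in all 10 panels.

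Among the ligands, Dll1 and Jag2 were higher in HsTX1[R14A] mice and Jag1 was not called. Dll1 (chr17:15367354-15376872, minus strand), a ligand of lateral inhibition, ranged from 1.65 to 3.72 CPM with a median of 2.92 in PBS mice and from 2.02 to 5.54 with a median of 3.85 in HsTX1[R14A] mice. The treated females, at 5.54, 5.47 and 4.69 CPM, were above every PBS mouse, and 6 of the 9 treated mice were above the highest PBS mouse. The log2 fold change was 0.62 ± 0.17 (SE, adjusted p = 0.0182), and the call stayed when any 1 mouse was left out. Like those of the other members, it was lost with the length slope as covariate (0.18, adjusted p = 0.640) and with 1 surrogate variable (0.33, adjusted p = 0.112). It was also lost in the 15 mice of the more common name form (0.65, adjusted p = 0.0759).

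Jag2 (chr12:112907819-112929776, minus strand), a ligand of the Jagged group, ranged from 4.75 to 19.9 CPM with a median of 12.3 in PBS mice and from 10.9 to 26.6 with a median of 16.8 in HsTX1[R14A] mice. Of the 9 treated mice 4 were above every PBS mouse. Its log2 fold change was 0.65 ± 0.20 (SE, adjusted p = 0.0243), and without HsTX1[R14A] female 71 it was 0.57 (adjusted p = 0.0502). Jag1 (chr2:137081456-137116644, minus strand), a ligand prominent in vessels and astrocytes, had a log2 fold change of 0.25 ± 0.12 (adjusted p = 0.1005). Its values ran from 4.28 to 7.59 CPM in PBS mice and from 4.05 to 8.47 in HsTX1[R14A] mice, so the lowest mouse of all was a treated one (male 93).

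Of the target genes Hes1 was called lower, and Hes5 and Hey1 were not called. Hes1 (chr16:30064384-30067796, plus strand), which encodes a repressor of proneural genes, had a log2 fold change of -0.29 ± 0.09 (SE, adjusted p = 0.0299). It ranged from 8.54 to 12.5 CPM with a median of 10.9 in PBS mice and from 6.15 to 11.4 with a median of 8.71 in HsTX1[R14A] mice. Of the 9 treated mice 4 were below every PBS mouse, with the lowest value in female 98, and only male 93, the treated mouse with the lowest Notch1, Notch2 and Notch3, was above the PBS median. The call was lost with no sex term (-0.26, adjusted p = 0.0559), with the name form added (-0.26, adjusted p = 0.0673) and without any 1 of 5 mice (PBS males 90 and 101, HsTX1[R14A] female 98 and males 81 and 88, adjusted p from 0.0519 to 0.0675).

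Hes5 (chr4:154960923-154962371, plus strand), whose promoter window carries the motif, had a log2 fold change of -0.04 ± 0.12 (SE, adjusted p = 0.787). It ranged from 8.64 to 14.004 CPM with a median of 11.6 in PBS mice and from 6.16 to 14.1 with a median of 10.7 in HsTX1[R14A] mice, and 4 of 9 treated mice were above the PBS median. Hey1 (chr3:8663359-8667256, minus strand), a repressor also known from endothelium, had a log2 fold change of -0.12 ± 0.05 (adjusted p = 0.0835). Its values ran from 37.5 to 52.0 CPM with a median of 44.9 in PBS mice and from 35.0 to 46.6 with a median of 43.4 in HsTX1[R14A] mice, and 7 of 9 treated mice were below the PBS median.

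The sexes gave the same signs for all 10 members. Notch3 had a log2 fold change of 1.14 ± 0.47 (SE) in females and 0.85 ± 0.41 in males, Jag2 one of 0.88 ± 0.31 and 0.48 ± 0.26, and Hes1 one of -0.43 ± 0.15 and -0.19 ± 0.12. The treatment by sex term called no member and 0 of 16303 genes (0.0%) in edgeR's test, while 270 genes had an unadjusted p under 0.05 and limma with voom also called 0. With 3 treated females, neither sex alone gave a call among the members, and 0 genes were called in females (4539 at an unadjusted p under 0.05) and 0 in males (3913).

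**Figure D2:**
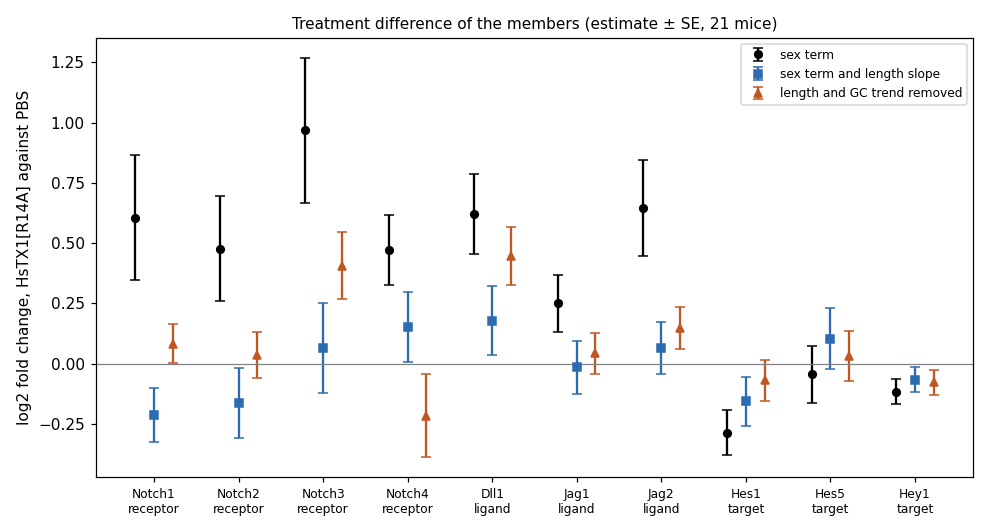
The log2 fold change of HsTX1[R14A] against PBS (vertical axis, estimate ± SE over 21 mice) is plotted for the 10 genes from 3 fits: with a sex term, with the sex term and the length slope, and after removal of the trend that log2 CPM shows on length and GC in a library. Notch3 falls from 0.97 to 0.07 and 0.41, and Hes1 moves from -0.29 to -0.16 and -0.07.

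The members differ in transcript length as well as in direction. The receptors have longest transcripts of 6591 to 10500 bases, the ligands of 3581 to 5612 bases and the targets of 1273 to 2423 bases. The slope was computed over all genes, the members among them, so long transcripts rise with it on average and short ones fall. The correlations that follow therefore do not set the members apart from other genes of like length, whose r is not given here. Across the 21 mice, after centering within treatment and sex, the level of Notch1 rose with the length slope at Pearson's r = 0.95 and Spearman's rho = 0.90 (adjusted permutation p = 5e-05 and 0.0001). For the other receptors and the ligands r ran from 0.68 (Notch4, adjusted permutation p = 0.00786) to 0.92 (Jag2), and it was 0.64 to 0.92 for the 7 genes without the 2 mice farthest from the median slope. For the targets r was -0.45 for both Hes1 and Hes5 (adjusted permutation p = 0.0485 for each) and -0.35 for Hey1 (adjusted permutation p = 0.172). Spearman's rho was -0.51 for Hes1 (adjusted permutation p = 0.0229), -0.43 for Hes5 (adjusted permutation p = 0.0825) and -0.32 for Hey1 (adjusted permutation p = 0.210). In the 15 mice of the more common name form the 7 receptors and ligands had r of 0.70 to 0.97 with the slope. In the 6 mice of the other form only the 3 HsTX1[R14A] males vary after centering, which is too few for a correlation.

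With the length slope as a covariate beside sex, none of the 10 members was called, and none of the 16303 genes either (1865 at an unadjusted p under 0.05). The log2 fold change of Notch1 was then -0.21 ± 0.11 (SE), that of Notch3 0.07 ± 0.19, that of Dll1 0.18 ± 0.14, that of Jag2 0.06 ± 0.11 and that of Hes1 -0.16 ± 0.10. When the loess trend of every library on length and GC was subtracted, Notch3 (0.41 ± 0.14, adjusted p = 0.0495) and Dll1 (0.45 ± 0.12, adjusted p = 0.0224) were called higher, against 10% of all genes, and no member was called lower, against 6.43%. Notch4 changed sign there, to -0.22 ± 0.17 (adjusted p = 0.383), and Hes1 was at -0.07 ± 0.08 (adjusted p = 0.584). Because the slope itself differed between treatments, how much of a difference belongs to the treatment and how much to the length slope cannot be told apart in these libraries.

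**Figure D3:**
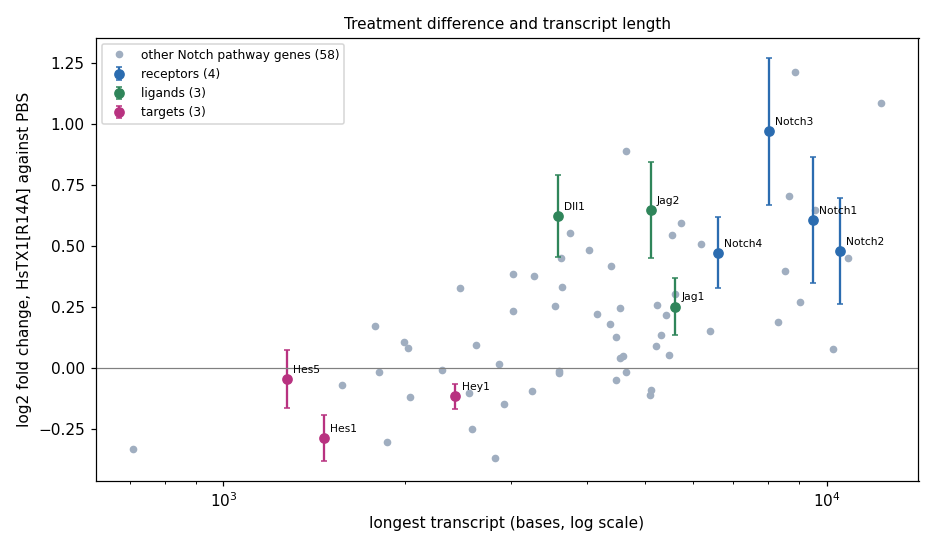
The log2 fold change of HsTX1[R14A] against PBS (vertical axis) is plotted against the longest transcript (horizontal axis, bases, log scale) for the 10 members with SE bars and for 58 other Notch pathway genes as grey points. The 3 targets, at 1273 to 2423 bases, lie below 0, and the 4 receptors, at 6591 to 10500 bases, lie between 0.47 and 0.97.

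The ratio of each target to each receptor within a mouse does not depend on library scaling, and 12 such ratios were tested by an exact permutation of treatment within sex (77616 labelings, two-sided, adjusted over the 12). All 12 log2 ratios were lower in HsTX1[R14A] mice, and 10 passed. Each sets a target under 2500 bases over a receptor of 5000 bases or longer. Over all genes these length classes had median log2 fold changes of -0.21 and 0.23. The share of other such pairs of a short and a long gene that would pass was not computed, so the count is not particular to Notch genes. The ratio of Hes1 to Notch3 was 1.38 ± 0.95 (SD) on the log2 scale in PBS mice and 0.16 ± 1.00 in treated mice. Averaged over the sexes it differed by -1.42 (exact permutation adjusted p = 0.0170), with 8 of 9 treated mice below the PBS median. That of Hes1 to Notch4 differed by -0.81 (exact permutation adjusted p = 0.0170) and that of Hey1 to Notch3 by -1.23 (exact permutation adjusted p = 0.0191). The smallest difference that passed was -0.55 for Hes5 to Notch4 (exact permutation adjusted p = 0.0283). Hes5 to Notch1 (-0.79, exact permutation adjusted p = 0.0569) and Hes5 to Notch2 (-0.62, exact permutation adjusted p = 0.0613) did not pass. The 12 ratios share 7 genes and are not separate pieces of evidence.

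Without HsTX1[R14A] female 98 only 5 ratios passed. With the length slope beside sex, 0 of 12 passed and the differences ran from -0.32 (Hes1 to Notch4) to 0.32 (Hes5 to Notch1). With the length and GC trend removed, 0 of 12 passed, and the lowest adjusted p was 0.113 (exact permutation), for the 3 ratios to Notch3. Within the 15 mice of the more common name form the differences ran from -1.45 to -0.50, and within the 6 mice of the other form from -0.87 to -0.21, where 8 labelings allow no p below 0.125. All 12 were negative in both forms.

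**Figure D4:**
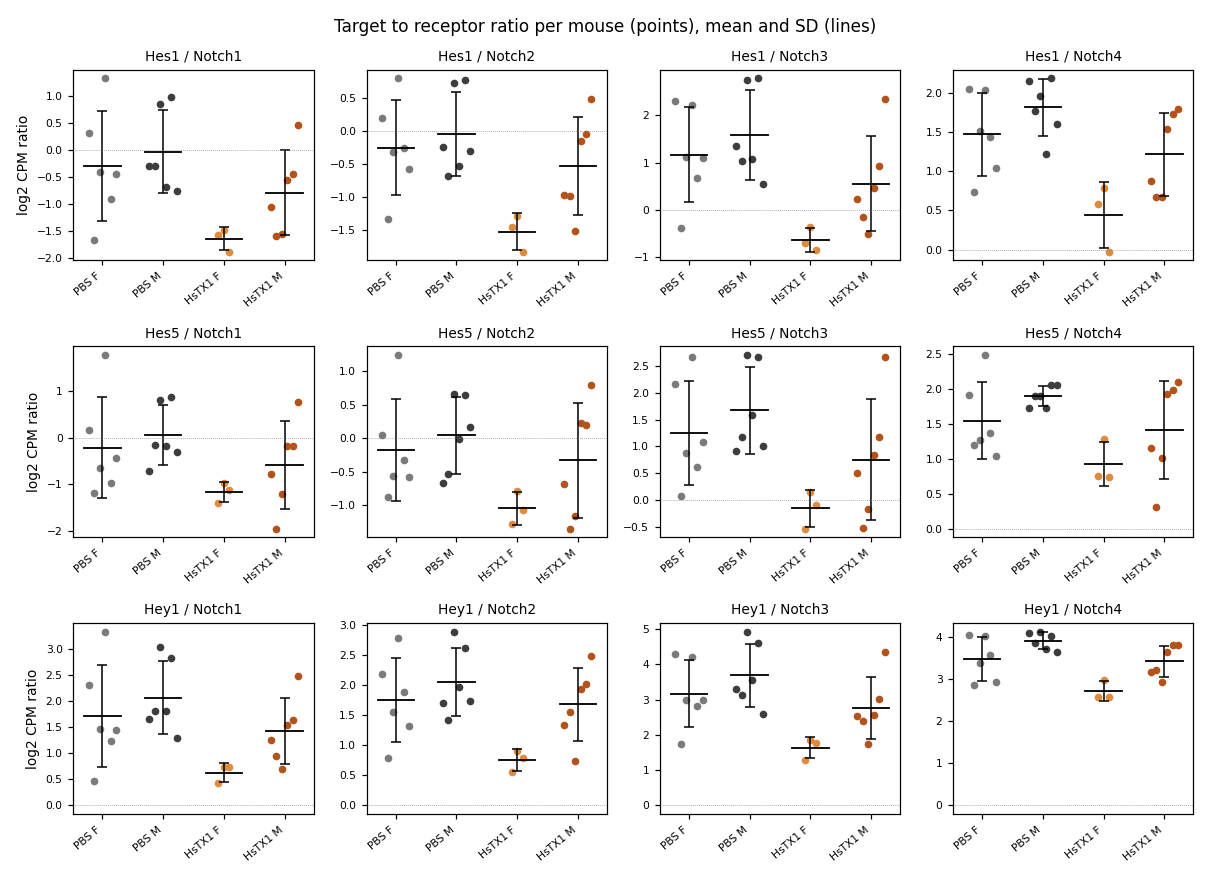
Each panel plots the log2 ratio of the CPM of a target (rows Hes1, Hes5, Hey1) to that of a receptor (columns Notch1 to Notch4) for the 21 mice in 4 groups, with the mean and SD as black lines and a dotted line at equal CPM. The mean of the treated females is the lowest of the 4 groups in each panel, and HsTX1[R14A] male 93 is the highest treated mouse in each panel except that of Hey1 to Notch4.

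Across mice, no target was positively correlated with a receptor. After centering within treatment and sex, Pearson's r of the 12 pairs over 21 mice ran from -0.52 (Hes1 with Notch3, and Hey1 with Notch3) to -0.11 (Hey1 with Notch4). None passed after adjustment over the 12 pairs (100000 permutations within treatment and sex, two-sided). The lowest adjusted permutation p was 0.136 for r and 0.209 for Spearman's rho, whose values ran from -0.49 to -0.09. Hes1 with Notch3 had r = -0.52 and rho = -0.43 (permutation p = 0.0191 and 0.0524 before adjustment), and r was -0.49 without the 2 mice farthest from the Notch3 median. For Hes1 with Notch4 that step gave r = -0.80 in place of -0.45.

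Within treatments, r of the 12 pairs ran from -0.50 to 0.19 in the 12 PBS mice and from -0.82 to -0.37 in the 9 HsTX1[R14A] mice. In the 15 mice of the more common name form it ran from -0.61 to -0.11. Taking the length slope out of both genes left r between -0.46 and 0.38, with -0.29 for Hes1 and Notch3, and no pair passed. With the length and GC trend removed, Hey1 with Notch3 (r = -0.75, adjusted permutation p = 0.00312) was the only pair to pass. Receptors and ligands went together across mice, with r between 0.65 (Notch4 and Jag1) and 0.93 (Notch1 and Notch3). This is a description over 21 libraries that differ in the length slope. With the trend removed, the same 21 pairs of genes ran from -0.66 (Notch1 and Notch4) to 0.65 (Notch3 and Jag1).

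**Figure D5:**
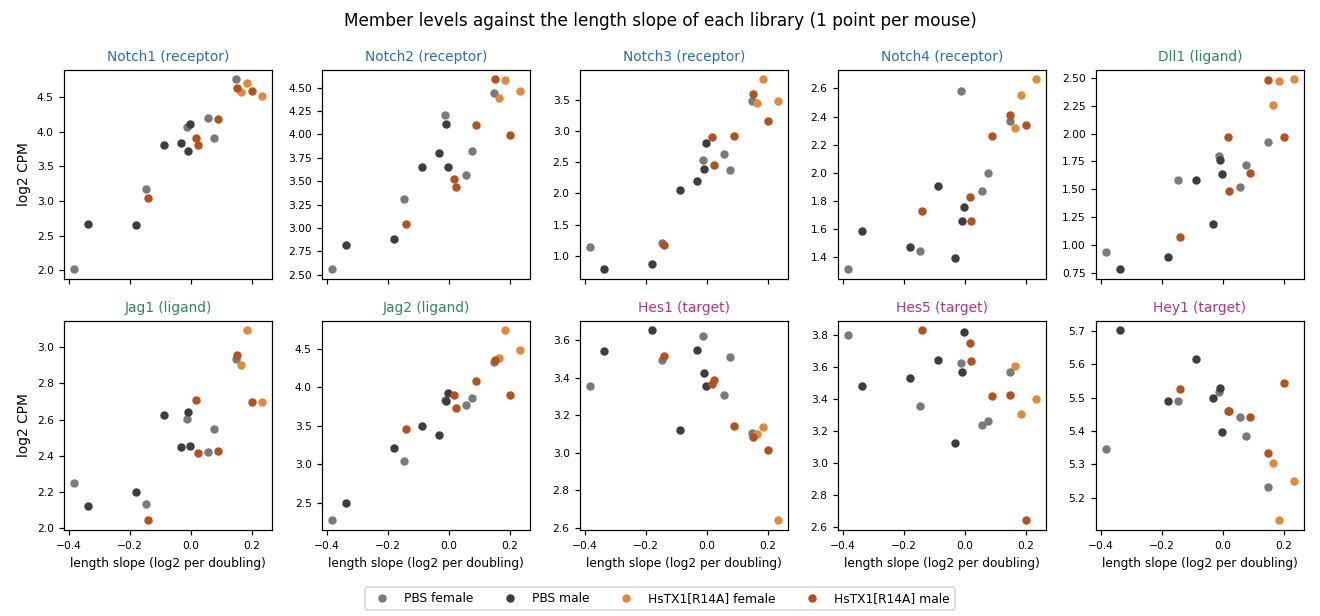
Each panel plots the log2 CPM of 1 gene (vertical axis) against the length slope of the library (horizontal axis, log2 per doubling of transcript length), with 1 point per mouse colored by group. Notch1 climbs with the slope (r = 0.95), and Hes1 declines (r = -0.45).

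The genes whose levels were most like those of Notch1 over the 21 mice, by Pearson's r of centered log2 CPM among 13301 genes, were Apc2, Myh14, Tnrc18, Prrc2b and Ubr4, with r of 0.98 to 0.99 and longest transcripts of 6499 to 15928 bases. For Notch3 they were Cluh, Tln1, Crocc, Slc6a9 and Plxnb1 (r of 0.97 to 0.98), none of which was among the mural markers listed. Mural markers below that level, such as Des, could not appear, and the part of mural cells was not tested. For Hes1 the most alike genes were Casp6, Sec14l2, Rasl10a, Rpusd3 and Cebpd (r of 0.76 to 0.87). For Hes5 they were Sumf2, Slc25a26, Tsfm, Ydjc and Ctu2 (r of 0.85 to 0.87), and for Hey1 they were Gm10925, Dazap2, Cxcl14, Trnp1 and Zfp180 (r of 0.80 to 0.86). Longest transcripts were of 3479 to 8649 bases for the genes most like Notch3. They were of 1110 to 3914 bases for those most like Hes1, 1271 to 3999 for Hes5 and 678 to 3901 for Hey1. These are descriptions over libraries that differ in depth and in the length slope, and that may differ in base composition.

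Of 58 other genes of the pathway in the table (60 listed, Hes2 and Hes3 not found), 16 were called higher and 4 lower, with a median log2 fold change of 0.16, where all genes tested gave 15.5% higher, 16.1% lower and a median of -0.01. The counts by role that follow are small, stand against the same shares, and are descriptions. Among nuclear activators 4 of 9 were higher and 0 lower, including Ep300, a histone acetyltransferase (0.65 ± 0.17 SE, adjusted p = 0.0186), and Maml1, the Mastermind-like coactivator (0.54 ± 0.17, adjusted p = 0.0249). Rbpj itself had a log2 fold change of 0.05 ± 0.07 (adjusted p = 0.550). Corepressors that hold Rbpj targets silent gave 4 higher and 1 lower of 12, with Tle3 higher (0.70 ± 0.21, adjusted p = 0.0233) and Cir1 (-0.37 ± 0.10, adjusted p = 0.0192) lower.

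Among other ligands 2 of 5 were higher, the neuronal ligand Dner (0.45 ± 0.13, adjusted p = 0.0195) and the endothelial ligand Dll4 (0.55 ± 0.21, adjusted p = 0.0473). Receptor processing genes gave 3 higher and 1 lower of 10. The convertase Furin (0.59 ± 0.19, adjusted p = 0.0286) was higher, while Psenen, a gamma-secretase subunit with a transcript of 708 bases, was lower (-0.33 ± 0.12, adjusted p = 0.0471). Of 5 glycosylation genes Pofut1 was higher (0.30 ± 0.11, adjusted p = 0.0450) and Mfng lower (-0.30 ± 0.11, adjusted p = 0.0436), and of 12 genes of endocytosis and turnover Mib2 and Neurl1b were higher and none lower.

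Of 5 further target genes none was higher and Nrarp, a feedback inhibitor, was lower (-0.25 ± 0.09, adjusted p = 0.0437). Hey2 was at -0.10 ± 0.17, Hes6 at -0.07 ± 0.11 and Heyl at 0.04 ± 0.24 (adjusted p of 0.640 to 0.909). With the length slope as covariate 0 of the 58 were called, and with the trend removed 9 were higher (10% of all genes) and 0 lower (6.43%).

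Markers of cell types that use Notch signaling were read from the same fit, and in whole brain fewer cells of a type and less RNA per cell cannot be told apart. The counts called are to be read against the 15.5% higher and 16.1% lower of all genes, and those of 1 or 2 genes of a list are near these shares. Of 11 astrocyte markers 4 were lower and 1 higher, with S100b at -0.72 ± 0.17 (adjusted p = 0.0152) and Gfap at -0.59 ± 0.20 (adjusted p = 0.0312). Their summed level ran from 3469 to 5186 CPM in PBS mice and from 3474 to 5228 in HsTX1[R14A] mice. The largest part of that sum is Slc1a2, with a longest transcript of 11595 bases. Its mean was 2006 CPM in PBS mice and 2461 in HsTX1[R14A] mice, and it was not called. The near-equal sums therefore do not stand for the list as a whole. Of 11 mural markers only Abcc9 was higher (0.52 ± 0.20, adjusted p = 0.0493), none was lower, and their summed level ran from 150.03 to 180.1 CPM and from 148 to 174. Of 12 endothelial markers 3 were higher and none lower, with Flt1 at 0.64 ± 0.18 (adjusted p = 0.0191) and Slc2a1 at 0.40 ± 0.12 (adjusted p = 0.0237). Their sums were 152 to 229.7 CPM in PBS mice and 148 to 264 in HsTX1[R14A] mice, with medians of 173 and 216. The log2 fold change was positive for 10 of the 12. For the mural markers the median sums were 164.6 and 164.5 CPM. Progenitor and immature neuron markers gave 1 higher and 0 lower of 10, neuron markers 1 and 0 of 10, and oligodendrocyte precursor markers 2 and 0 of 8. Oligodendrocyte markers gave 0 higher and 5 lower of 9, microglia markers 0 and 4 of 10, and ependymal markers 0 and 4 of 8. Choroid plexus (8) and erythrocyte (5) markers had no call. The median log2 fold change was -0.08 for astrocyte, -0.02 for mural and 0.32 for endothelial markers, where all genes tested gave -0.01. It was 0.14 for progenitor, 0.14 for neuron, 0.11 for oligodendrocyte precursor and 0.34 for erythrocyte markers. Oligodendrocyte markers had -0.40, microglia -0.30, ependymal -0.80 and choroid plexus -0.15. Transcript length stands beside these counts and medians too. The 4 ependymal markers called lower have longest transcripts of 527 to 1087 bases, and Flt1 one of 6895 bases. The 5 oligodendrocyte markers called lower have ones of 1704 to 4797 bases. With the length slope as covariate 0 of 16303 genes were called, so none of these marker calls remained. The part of these markers in the Notch differences was not tested.

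Exons of 3 members overlap genes of the opposite strand that the table also holds: Notch1 with 0610009E02Rik (1068 bases), Notch3 with Gm17276 (488 bases) and Dll1 with A930024N18Rik (867 bases). Whether counting used strand is not given in the sources used here, so reads of these overlaps may be shared.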

How the data were processed

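Whole-brain RNA of 21 SAMP8 mice was sequenced, 1 library per mouse. The labels name a SMARTER mRNA kit and the study's methods a directional kit, and the submitters' processing notes name GRCm38, STAR and Salmon. The authors deposited estimated counts for 16318 genes, not normalized. Within a tolerance of 0.01, 90.496% were whole numbers, and every value was rounded before use. The table also holds the authors' own CPM, fold change, p and FDR columns, and these were not used; 53 per-sample columns (37 of CPM, 16 of counts of other libraries) were left out.

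After filterByExpr (16303 genes) and TMM scaling, edgeR 4.0.16 in R 4.3.3 fitted a quasi-likelihood model (glmQLFit, then glmQLFTest) on sex and treatment, with Benjamini-Hochberg adjustment over all genes (FDR of 0.05). CPM values are TMM-scaled, and log2 CPM has a prior count of 2. SE is the absolute log2 fold change over the square root of F. Length and GC content come from the longest transcript in GENCODE vM21, found for 99.52% of genes. Ratios were tested by exact permutation and correlations by 100000 permutations, within sex or within treatment and sex. Named genes were all 10 members, for each pathway role the 2 called genes with the smallest p in each direction, the 5 genes most like each of 5 members, and up to 2 called astrocyte, mural and endothelial markers. Of the genes this rule selects, 2 are not reported here. Rbpj and further target genes were named after their values were seen.

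The members and gene lists were chosen with earlier results of these data known. Alternatives were limma 3.58.1 with voom, DESeq2 1.42.0, RLE scaling, other filters, no sex term, the name form or length slope as covariate, 1 surrogate variable (sva 3.50.0), sample quality weights, a loess trend (span 0.5) on length and GC removed, the mice of either name form alone, and leaving out every mouse in turn. The procedure was tested on simulated data, which held no length slope that differed between treatments. How it performs with such a slope was not tested. P-values treat each mouse as 1 independent unit, with cage in no fit.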

Additional observations from a re-analysis of the deposited data

How the results depend on the processing

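Direction held for the 4 members called higher and for Hes1 in each of the 13 other fits and the 21 fits without 1 mouse, except Notch4 with the length and GC trend removed (-0.22). The members called higher were 4 and became 0 with the length slope, with 1 surrogate variable and in either name form alone, 2 with the length and GC trend removed, and 2 to 7 without 1 mouse (2 without HsTX1[R14A] female 71, 7 without male 93). The 1 member called lower became 0 with no sex term, the name form, the length slope, 1 surrogate variable, the trend removed and either name form alone, 2 with sample quality weights, and 0 to 2 without 1 mouse. Genes called by treatment were 5144, and 2984 with no sex term, 1999 with the name form, 0 with the length slope, 1104 with 1 surrogate variable, 2686 with the trend removed, 0 in either name form, and 2289 to 6614 without 1 mouse. Other Notch pathway genes called higher were 16, and 5, 3, 0, 2, 9, 0 and 0 under the same 7 settings in that order, and 6 to 23 without 1 mouse; those called lower were 4, and 1, 1, 0, 0, 0, 0 and 0, 2 with sample quality weights, and 1 to 4 without 1 mouse. The cause was not tested.

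Of the 12 target to receptor ratios 10 differed, 0 with the length slope, with the trend removed and in either name form, and 5 to 12 without 1 mouse (5 without HsTX1[R14A] female 98). With the length slope the difference turned positive for Hes1 to Notch1 (0.047), Hes1 to Notch2 (0.0023), Hes5 to Notch3 (0.038), Hey1 to Notch1 (0.14) and Hey1 to Notch2 (0.094), and also for Hes5 to Notch1 (0.32) and Hes5 to Notch2 (0.28), which had not passed, and with the trend removed for Hes1 to Notch4 (0.14), Hes5 to Notch4 (0.25) and Hey1 to Notch4 (0.13). Of the 12 correlations 0 passed, 8 with no centering, 1 with the trend removed, 1 without the 2 mice farthest from the receptor median, and 0 to 5 without 1 mouse (3 without PBS female 103, 5 without PBS female 105), all of them negative. Treatment by sex called 0 genes in each of 4 fits. Each mouse had 1 treatment, so no mouse could be paired with itself. The study assigned treatment at random within each cage. Cage is not among the labels used here, so it was not in any fit. The counts of the 10 members ranged from 26 to 1943 per mouse, and how much of the spread between mice is counting error, which is largest for the low counts of Dll1, Notch3 and Notch4, was not tested. The 6 mice of the other name form are too few for a call.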
